A study of Mus musculus with 9 samples.

Results

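This account covers 10 genes of podocyte actin regulation and intermediate filaments (Synpo, Actn4, Avil, Eps8, Inf2, Myo1e, Ezr, Pdpn, Nes and Vim), taken by symbol from a table of 55385 mouse genes. Each symbol matched 1 row of the table. RNA was sequenced from MCP5, a wild-type mouse podocyte line, with 3 libraries in each of 3 groups. The groups were cells given high glucose (50 mmol/L), cells given advanced glycation end products (AGEs, 400 µg/mL), which are proteins altered by reducing sugars, and untreated control cells. How long the cells were treated, how much glucose the control cells had and whether osmotic or carrier protein controls were run is not stated in the labels, which also do not say whether the libraries of a group came from separate cultures, so p-values measure the spread between libraries, which may be technical.

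Podocytes wrap the glomerular capillaries with foot processes whose shape rests on parallel actin bundles, while their cell bodies and major processes hold intermediate filaments. Crosslinkers such as alpha-actinin-4 and its partner synaptopodin hold the bundles together, and formins and myosins build and move actin near the membrane. Ezrin ties actin to surface proteins such as podoplanin. Loss of foot process structure is a hallmark of proteinuric kidney disease, and mutations of ACTN4, INF2, MYO1E and AVIL cause inherited podocyte disease in humans.

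Total counts ranged from 46284878 to 77242281 per library. On the first principal component of log2 expression, with 41.0% of the variance, the high glucose libraries lay apart from all AGEs and control libraries, and on the second, with 11.9%, AGEs library 3 was at 82.8 and the others between −46.2 and 9.11. Of 13 podocyte markers, Lmx1b, Foxc2 and Cdkn1c had 0 counts in every library and Wt1 had at most 11, while Nphs1 ran from 280 to 7040 counts and Podxl from 1132 to 2276. The summed level of that list was 4.83 to 10.2 FPKM (deposited fragments per kilobase and depth) in high glucose, 6.89 to 17.8 in AGEs and 4.12 to 9.66 in control. Over all 17680 genes tested by edgeR, the share called at an adjusted p under 0.05 in high glucose against control was 19.6% for higher and 19.7% for lower. Of 10 parietal epithelial markers 4 were higher and 1 was lower in that comparison, with summed levels of 838 to 912 FPKM in high glucose, 415 to 483 in AGEs and 438 to 460 in control. All 3 tubular markers tested, of 7 listed, were higher in high glucose than in control, with sums of 81.6 to 86.2 FPKM in high glucose, 22.9 to 27.8 in AGEs and 23.5 to 24.2 in control, and Slc34a1, Umod and Aqp2 had 0 counts in every library. The summed endothelial, mesangial and leukocyte markers were also higher in high glucose (2.57 to 3.28, 12.4 to 14.0 and 50.3 to 58.1 FPKM) than in AGEs (0.695 to 0.945, 5.84 to 6.72 and 26.2 to 32.9 FPKM) and control (1.01 to 1.14, 6.97 to 7.69 and 28.8 to 30.9 FPKM). In high glucose 1 gene gave the largest part of each sum but the podocyte one. These were Cd24a (parietal, 382 to 427 FPKM) and Cdh16 (tubular, 78.4 to 82.85 FPKM). Egfl7 (2.14 to 2.89 FPKM), Mcam (9.08 to 9.72 FPKM) and Cd14 (29.8 to 31.2 FPKM) were the others. Of 3 endothelial and 6 mesangial markers tested, 2 and 2 were called higher than in control and 0 lower. Pdgfrb was at 2.61 to 3.39 FPKM in high glucose and 2.72 to 3.15 in control. Of the 7 leukocyte markers tested, Cd14 and Csf1r were 3.73-fold and 1.65-fold higher in high glucose than in control, and Cd68 was 2.29-fold lower (adjusted p = 0.00419). The part of these markers in the results that follow was not tested.

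Per transcript length, Ezr was the most abundant of the 10 genes in each group, with 165 ± 10.6 FPKM in high glucose, 205 ± 16.5 in AGEs and 181 ± 6.65 in control (mean ± SD, n = 3 each, as are all such values here). Actn4 came next in every group, at 77.4 ± 0.984, 80.1 ± 9.36 and 73.8 ± 9.69 FPKM in high glucose, AGEs and control. In control the order went on with Vim (35.0 ± 4.30), Nes (12.2 ± 0.950), Pdpn (12.2 ± 0.279), Avil (7.38 ± 0.613), Inf2 (5.63 ± 0.376), Myo1e (3.79 ± 0.0584), Synpo (2.03 ± 0.238) and Eps8 (1.21 ± 0.102). Of neighbours in that order, only Nes and Pdpn had ranges that overlapped. In high glucose Nes stood above Vim, at 37.1 ± 5.66 against 25.6 ± 7.75 FPKM with overlapping ranges, and Avil was last, at 0.0958 ± 0.0182 FPKM. In AGEs Synpo was last, at 0.647 ± 0.151 FPKM.

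To ask how high glucose bears on these genes, the 3 high glucose libraries were set against the 3 control libraries by the edgeR quasi-likelihood test fitted over 17680 genes, with levels in CPM (counts relative to TMM-scaled library size). All 10 genes passed the filter on low counts. Synpo, Nes, Myo1e, Inf2 and Pdpn rose, Avil, Ezr and Vim fell, and Actn4 and Eps8 did not pass at an adjusted p of 0.05. Of all genes tested 39.3% were called in that comparison, 19.6% higher and 19.7% lower. The median log2 fold change was 0.20 over the 10 genes and 0.03 over all genes. The libraries of the 2 groups did not overlap for 8 of the 10 genes, against 54.1% of all genes, with 5 genes wholly above control (28.3% of all genes) and 3 wholly below (25.8%). With library size alone as the scaling, the median of all genes was 0.21 on the log2 scale in place of 0.03, and 4808 genes were then higher and 2287 lower, in place of 3466 and 3480. In bulk RNA, fewer cells with a transcript and less transcript per cell cannot be told apart.

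**Figure D1:**
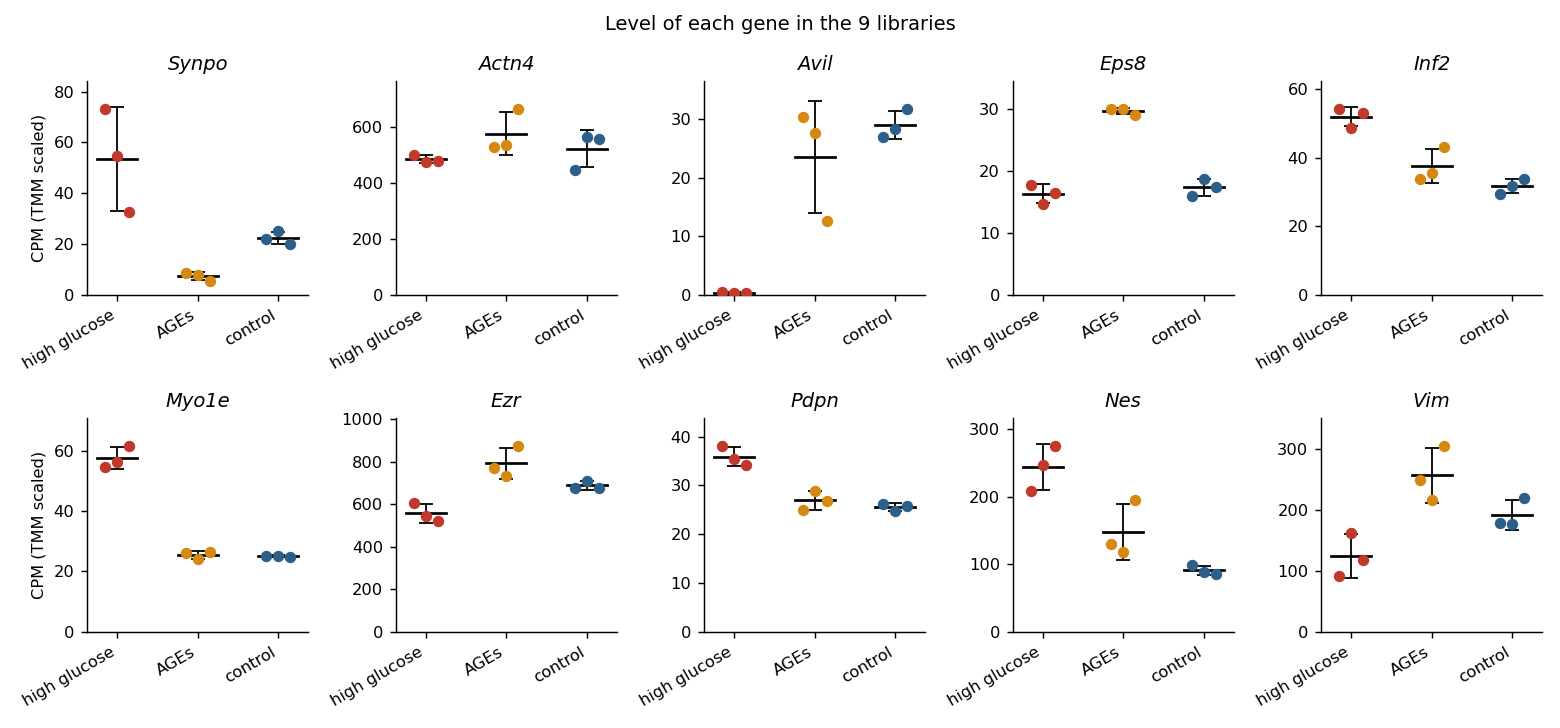
Level of each of the 10 genes in the 3 high glucose, 3 AGEs and 3 control libraries, in CPM with TMM scaling; points are libraries, and bars show the mean ± SD of a group. Avil lies near 0 in high glucose (0.276 to 0.398 CPM), and Synpo is above control in high glucose and below it in AGEs. The difference of Synpo between AGEs and control was not called (edgeR adjusted p = 0.117).

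Among the proteins that bundle, crosslink or cap actin, Avil moved most. Avil encodes advillin, an actin-binding protein of the villin family (ENSMUSG00000025432, GRCm38 chromosome 10, 127000709 to 127020994, plus strand). It had 33, 14 and 28 counts in the high glucose libraries, 1983, 1905 and 864 in the AGEs libraries and 1720, 1944 and 1894 in the control libraries. Scaled to library size this was 0.342 ± 0.0618 CPM in high glucose and 29.0 ± 2.46 CPM in control, an 83.1-fold fall (log2 fold change −6.38, SE 0.37, edgeR adjusted p = 3.35e-06). The call held in all 16 alternative settings run for it, with log2 fold changes from −6.50 to −2.93, the smallest on the log2(FPKM + 1) scale. Tsfm, a mitochondrial translation factor, overlaps Avil on the opposite strand, and whether strand was used in counting is not known from the sources used here. The 2 genes share 165 exonic bases in GENCODE release 21, which is 4.86% of the exonic bases of Avil. Tsfm had 5161, 3257 and 5069 counts in high glucose and 4139, 3990 and 4200 in control (log2 fold change −0.02, SE 0.09, adjusted p = 0.865). Each high glucose library thus held at most 33 counts of Avil and at least 3257 of Tsfm.

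Of 12 other genes tested within 100 kb of Avil on chromosome 10, 4 were lower and 2 higher in high glucose than in control, against 19.7% and 19.6% of all genes, so calls of neighbours are not a result about this neighbourhood. The methyltransferases Eef1akmt3 and Mettl1 were at −1.60 (SE 0.15, edgeR adjusted p = 4.64e-05) and −1.36 (SE 0.09, adjusted p = 7.04e-06), the cell cycle kinase Cdk4 at −0.73 and the ER lectin Os9 at −0.36. March9 was at 0.52 and Agap2 at 1.75 (SE 0.61, edgeR adjusted p = 0.0468). Agap2 had low levels, 0.666 CPM in high glucose and 0.197 CPM in control. Avil, at −6.38, lay far below each of them. Ctdsp2, which ends just before Avil on the same strand, had 5561, 11185 and 5022 counts in high glucose, 8054, 8653 and 3396 in AGEs and 7494, 8222 and 7752 in control. In CPM, Ctdsp2 was at 67.1, 220.4 and 63.2 in high glucose, 123, 125 and 49.5 in AGEs and 122 ± 6.63 in control. High glucose libraries 1 and 3 and AGEs library 3 lay below every control library, and high glucose library 2 lay above them all. Its log2 fold change in high glucose against control, −0.07 (SE 0.49, adjusted p = 0.931), thus averages libraries on both sides of control. In AGEs against control 0 of the 12 genes were called by edgeR. At an unadjusted edgeR p under 0.05 were 3 of the 12, against 2190 of all 17680 genes.

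**Figure D2:**
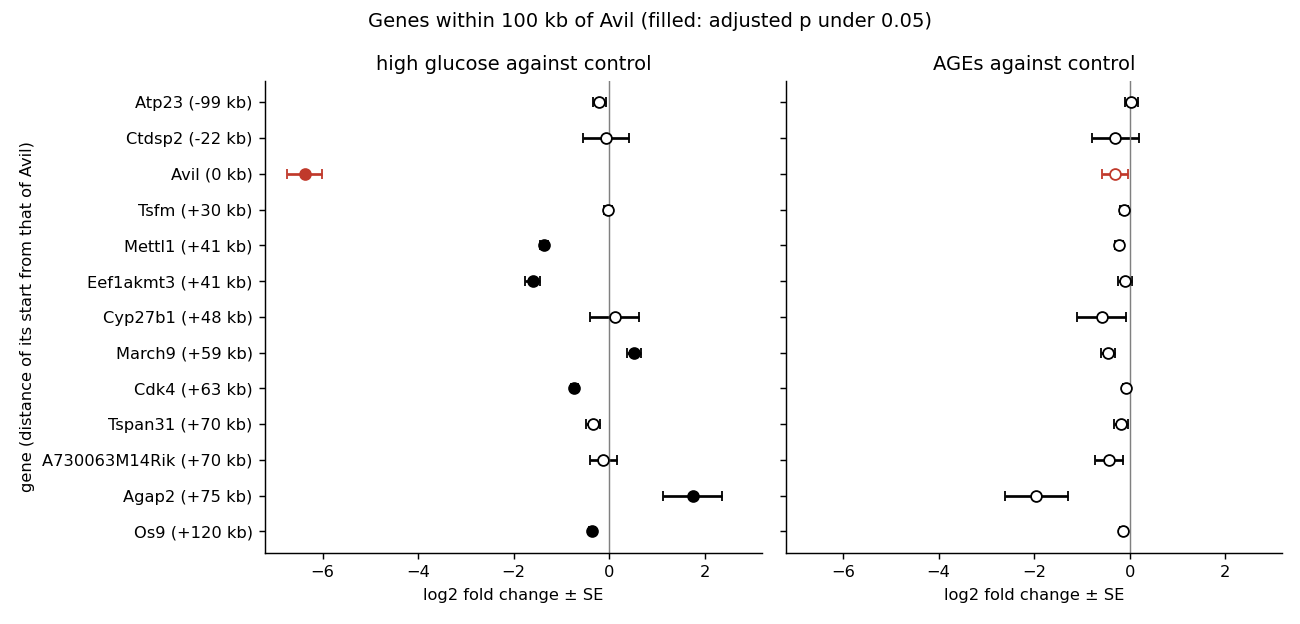
edgeR log2 fold change ± SE of Avil and the 12 other genes tested within 100 kb of it, in high glucose against control and AGEs against control. Avil is at −6.38 in high glucose, and the lowest of the other genes in high glucose against control, Eef1akmt3, is at −1.60.

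Synpo encodes synaptopodin, which binds alpha-actinin and actin in podocyte foot processes (ENSMUSG00000043079). It was at 73.2, 54.6 and 32.4 CPM in high glucose and at 22.0, 25.01 and 20.2 CPM in control. All 3 high glucose libraries lay above all 3 control libraries, and their spread was wide, with a coefficient of variation of 38.2% against 10.9% in control. The rise was 2.38-fold (log2 fold change 1.25, SE 0.27, adjusted p = 0.00543), and over the 16 alternatives its log2 value ran from 0.95 to 1.51 and its adjusted p from 7.93e-06 to 0.0244.

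Actn4, which encodes the crosslinker alpha-actinin-4 (ENSMUSG00000054808, chromosome 7, 28893248 to 28962340, minus strand), had 501, 476 and 479 CPM in high glucose and 446, 563 and 558 CPM in control. The ranges overlapped, and Actn4 did not pass, at −0.11 on the log2 scale (standard error 0.11, adjusted p = 0.51). Eps8, which caps and bundles actin filaments (ENSMUSG00000015766, chromosome 6, 137477245 to 137654876, minus strand), had 16.3 ± 1.51 CPM in high glucose and 17.4 ± 1.33 CPM in control (log2 fold change −0.09, SE 0.11, adjusted p = 0.558). With library size alone and on the FPKM scales both values were above 0, from 0.047 to 0.089, and neither was called there either. Actn4 shares 316 exonic bases with Capn12 on the opposite strand, which had 0 counts in every library.

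The formin and the motor protein both rose in high glucose. Myo1e, a class I myosin that links actin to the membrane (ENSMUSG00000032220, chromosome 9, 70207350 to 70399766, plus strand), was at 54.8, 56.3 and 61.7 CPM in high glucose and at 25.2, 25.2 and 24.7 CPM in control. The groups were well apart and the control libraries nearly equal, with a coefficient of variation of 1.07%. Its log2 fold change was 1.20 (SE 0.08, adjusted p = 9.36e-06). Inf2, a formin that both builds and severs actin filaments (ENSMUSG00000037679, chromosome 12, 112588784 to 112614957, plus strand), was at 54.3, 48.9 and 53.0 CPM in high glucose and at 29.6, 31.9 and 33.7 CPM in control. It rose by 0.71 on the log2 scale (SE 0.11, adjusted p = 0.00071). Both calls held in all 16 alternatives.

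Of the proteins at the membrane, podoplanin rose and ezrin fell. Pdpn encodes podoplanin, a surface glycoprotein that binds ezrin (ENSMUSG00000028583, chromosome 4, 143267431 to 143299564, minus strand). It was at 38.2, 35.4 and 34.2 CPM in high glucose and at 26.3, 24.7 and 25.7 CPM in control, a rise of 0.49 on the log2 scale (SE 0.09, adjusted p = 0.00232). Ezr, which encodes the membrane-to-actin linker ezrin (ENSMUSG00000052397, chromosome 17, 6738041 to 6782784, minus strand), was at 605, 545 and 519 CPM in high glucose and at 677, 710 and 675 CPM in control. The groups did not overlap, and Ezr fell by 0.31 on the log2 scale (SE 0.08, adjusted p = 0.0172). The call of Ezr was lost when high glucose library 2 or library 3 was left out (adjusted p = 0.0584 and 0.0645), when control library 2 was (0.0576), and with library size alone (0.218) or on the log2(FPKM + 1) and log2(FPKM + 0.1) scales (0.208 and 0.214). The ratio of Pdpn to Ezr within a library does not depend on scaling, and it was 0.117 ± 0.00262 in high glucose and 0.0674 ± 0.00379 in control, in FPKM.

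Of the intermediate filament genes, Nes rose and Vim fell. Nes encodes nestin, a large intermediate filament protein that podocytes keep into adulthood (ENSMUSG00000004891, chromosome 3, 87971078 to 87980451, plus strand). It was at 208, 247 and 276 CPM in high glucose and at 98.6, 88.5 and 84.6 CPM in control, a 2.69-fold rise (log2 fold change 1.43, SE 0.18, adjusted p = 0.000266). Vim encodes vimentin, with which nestin assembles (ENSMUSG00000026728, chromosome 2, 13573927 to 13582826, plus strand). It was at 91.1, 163 and 118 CPM in high glucose and at 179, 177 and 220 CPM in control. Vim fell by 0.63 on the log2 scale (SE 0.21, adjusted p = 0.0352), with no overlap in CPM. On the deposited FPKM scale, which has no TMM factor, high glucose library 2 had 33.8 FPKM, within the control range of 32.5 to 39.9. The Vim call was lost when high glucose library 1 or library 3 was left out (adjusted p = 0.0989 and 0.0959), when any one of control libraries 1, 2 and 3 was (0.0584, 0.0551 and 0.112), with library size alone (0.114) and on the FPKM scales (0.0978 and 0.0935). The ratio of Nes to Vim within a library was 1.69, 1.12 and 1.73 in high glucose and 0.407, 0.371 and 0.284 in control, in FPKM, so Nes exceeded Vim in each high glucose library and in no control library. This ratio, like that of Pdpn to Ezr, was chosen after the values were seen.

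Promoter sequence from RefSeq (GRCm38.p6) was available here for 8 of the 10 genes. The bases before the start site are shown for the gene that fell most, Avil, for Nes, which had the largest rise, and for Myo1e, which had the smallest p among the genes that rose. Each is written 5′ to 3′ on the plus strand and ends at the last base before the gene, at chr10:127000459-127000708 for Avil, chr3:87970843-87971077 for Nes and chr9:70207100-70207349 for Myo1e. Capitals mark every match, on either strand, to the motifs searched, which were the TATA box (TATAAA), the GC box of Sp1 factors (GGGCGG), the E-box of basic helix-loop-helix factors (CACGTG), the box bound by NF-Y (CCAAT), the element of TEAD factors (GGAATG), the ATF4 element in a longer form (TGATGNAAT) and in a shorter form contained within that longer form (TGATGNAA), the ER stress element, which holds a CCAAT, and the CArG box of serum response factor.
Avil: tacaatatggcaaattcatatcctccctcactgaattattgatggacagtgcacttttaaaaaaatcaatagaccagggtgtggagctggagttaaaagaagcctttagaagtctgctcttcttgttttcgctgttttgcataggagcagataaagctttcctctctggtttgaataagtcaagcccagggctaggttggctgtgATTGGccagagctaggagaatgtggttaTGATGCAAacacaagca
Nes: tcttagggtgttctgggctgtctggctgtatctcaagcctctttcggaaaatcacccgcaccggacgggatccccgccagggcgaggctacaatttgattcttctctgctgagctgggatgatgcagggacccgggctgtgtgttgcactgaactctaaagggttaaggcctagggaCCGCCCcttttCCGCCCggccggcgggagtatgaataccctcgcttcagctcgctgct
Myo1e: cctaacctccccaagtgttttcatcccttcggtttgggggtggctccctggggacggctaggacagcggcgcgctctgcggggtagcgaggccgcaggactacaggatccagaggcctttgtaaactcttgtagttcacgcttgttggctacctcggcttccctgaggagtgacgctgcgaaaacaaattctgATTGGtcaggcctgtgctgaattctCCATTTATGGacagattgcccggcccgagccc
Avil held 1 match to TGATGNAA, starting 17 bases before the gene, and 1 to CCAAT. The 8-letter form was added after the sequence had been seen, the 9-letter form had no match, and 3.45% and 0.816% of 32851 mouse promoter windows of 250 bases hold them. Nes held 2 GC boxes, which 32.7% of those windows hold. Myo1e held 1 CArG box, 32 bases before the gene, and 1 CCAAT, which 1.47% and 33.8% of the windows hold. A match is a description of these letters only.

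The other genes of these families gave a wider view of the same comparison, against 19.6% of all genes called higher and 19.7% called lower. Counts of these lists describe them and carry no test. Of 11 other formins tested 5 rose and 0 fell (median log2 fold change 0.60), among them Fmnl3 (223 CPM in high glucose and 108 CPM in control, log2 fold change 1.05, adjusted p = 7.32e-05) and Fhod1 (0.68), while Diaph1 was at −0.0052 (adjusted p = 0.969). Of 6 other class I myosins Myo1d alone was called, at 0.53. Of 7 relatives of advillin in the gelsolin and villin superfamily 4 rose and 0 fell, namely the villin-like Vill at 1.38, the severing protein Gsn at 0.58, Capg and Svil, so Avil was the only called gene of that superfamily that was lower. Among alpha-actinins and other crosslinkers 9 of 22 rose and 4 fell. Cttn, a branch-stabilising protein, was at 0.60 and the actin scaffold Palld at 0.78, while Tagln2 and the filamin Flnc were at −0.61 and −0.46. Actn1, the non-muscle alpha-actinin nearest to Actn4, was at 0.02 (adjusted p = 0.924). Synpo2l, a relative of Synpo, was lower, at 0.970 CPM in high glucose and 2.83 CPM in control (log2 fold change −1.55, adjusted p = 0.0164).

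Around Eps8, 2 of 9 relatives and capping proteins rose (Capzb at 0.45 and Twf2 at 0.47) and 1 fell, Eps8l2 at −0.43. Of 9 ERM proteins and partners 2 rose, the ezrin-binding scaffold Slc9a3r1 at 0.80 and Nf2 at 0.50, and 2 fell, the ezrin paralog Msn at −0.36 and the hyaluronan receptor Cd44 at −0.39. Intermediate filament genes other than Nes and Vim had 7 of 12 higher and 0 lower, with a median of 0.85. That list also holds nuclear lamins and Plec, which encodes a filament linker. The keratin Krt18 was at 494.9 CPM in high glucose and 503.4 CPM in control. The nuclear lamins Lmnb1 and Lmna were at 1.18 and 1.33, Lmna with 300.2 CPM in high glucose and 119 CPM in control. Synm, which encodes synemin, was at 1.11 (adjusted p = 0.00726), and Des, which encodes desmin, at 0.93 (adjusted p = 0.112). Of 20 Arp2/3, cofilin and monomer-binding genes 9 rose and 0 fell, with the profilin Pfn2 at 1.45 and the cofilin phosphatase Ssh1 at 0.93. Among 15 genes of serum response factor and its actin targets 3 rose, with the tropomyosin Tpm1 at 0.88 and Cnn1 at 0.999, and 2 fell, the secreted proteins Ccn2 at −1.26 and Ccn1 at −0.42, and the median of 0.03 was that of all genes. With library size alone, the counts of higher and lower genes became 5 and 1 around Eps8, 4 and 0 for ERM proteins and 14 and 0 for Arp2/3 genes. They became 6 and 1 for serum response factor targets, 2 and 0 for class I myosins, 11 and 3 for crosslinkers and 6 and 0 for formins. Under that scaling more of all genes were called higher and fewer lower, as given above, so these shifts are not a result about the lists. The direction of every list's median above was the same with library size alone, other scalings and limma on FPKM.

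**Figure D3:**
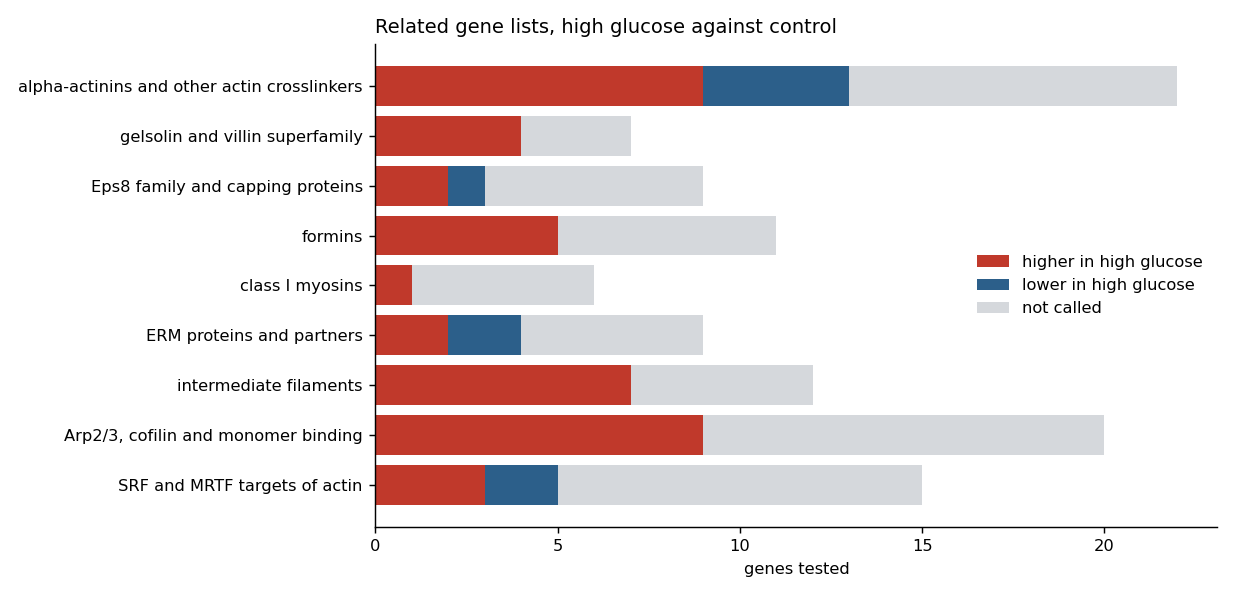
Number of genes tested in each list of related genes that were called higher, called lower or not called in high glucose against control (edgeR, adjusted p under 0.05). The lists leave out the genes of this account, among them Avil and Vim, which were called lower. The lists of formins, class I myosins, the villin superfamily, intermediate filaments and Arp2/3 genes have 0 genes called lower.

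To ask how AGEs bear on the same genes, the AGEs libraries were compared with the same control libraries that high glucose was set against. Eps8 was the only one of the 10 genes called, and it rose, while 0.0848% of the 17680 genes were called in all, 0.0509% higher and 0.0339% lower. It was at 29.9, 30 and 29.1 CPM in AGEs and at 15.97, 18.6 and 17.4 CPM in control. The groups were well apart, with a 1.71-fold rise (log2 fold change 0.77, SE 0.11, edgeR adjusted p = 0.0436). That call lay close to the threshold and was lost in 12 of 16 alternatives, among them without AGEs library 1, 2 or 3 (adjusted p = 0.111, 0.123 and 0.0914), without control library 1, 2 or 3 (0.162, 0.086 and 0.165) and with library size alone (0.0515), while over all alternatives the log2 fold change ran from 0.46, on the log2(FPKM + 1) scale, to 0.83. Its adjusted p over the alternatives ran from 9.33e-08, with DESeq2, to 0.229. Of 111 genes tested in these 9 lists of related genes, 0 were called by edgeR in AGEs against control and 0 by limma on FPKM. The limma fits also called 0 of the 10 genes in this comparison. These lists were not run with DESeq2, which called more genes than edgeR here. At an unadjusted edgeR p under 0.05 were 21 of the 111, against 2190 of all 17680 genes.

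Synpo had 8.53, 7.75 and 5.45 CPM in AGEs and 22.0, 25.01 and 20.2 CPM in control. All AGEs libraries were below all control libraries, at −1.63 on the log2 scale (SE 0.28, unadjusted p = 0.000221, edgeR adjusted p = 0.117), so it did not pass over all genes. It was called by DESeq2 (adjusted p = 3.53e-07), which called 268 genes in place of 15, and in a fit of the 2 groups alone (0.0432), and over the alternatives its adjusted p reached 0.284. Nes was at 130, 118 and 195 CPM in AGEs and at 98.6, 88.5 and 84.6 CPM in control (log2 fold change 0.70, SE 0.18, edgeR adjusted p = 0.258, and 0.0155 with DESeq2). Without AGEs library 3, its highest, the log2 value of Nes was 0.45.

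Avil had 30.3, 27.6 and 12.6 CPM in AGEs and 27.0, 28.2 and 31.8 CPM in control (log2 fold change −0.30, SE 0.28, adjusted p = 0.686). Library 3 was the low one, and without it the log2 fold change was −0.0025. Vim was highest in that same library, at 249, 217 and 306 CPM in AGEs against 179, 177 and 220 CPM in control (log2 fold change 0.42, SE 0.20, adjusted p = 0.439). Inf2 and Ezr did not overlap between the groups and did not pass, at 0.25 (SE 0.11, adjusted p = 0.402) and 0.20 (SE 0.08, adjusted p = 0.385). Actn4, Pdpn and Myo1e were at 0.14, 0.075 and 0.026 (adjusted p = 0.645, 0.783 and 0.936), with standard errors of 0.11, 0.09 and 0.08. Groups did not overlap for 5 of the 10 genes, against 19.2% of all genes, with 4 wholly above control (9.47% of all genes) and Synpo below it (9.73%), and the median log2 fold change was 0.17 over the 10 genes and −0.0047 over all.

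**Figure D4:**
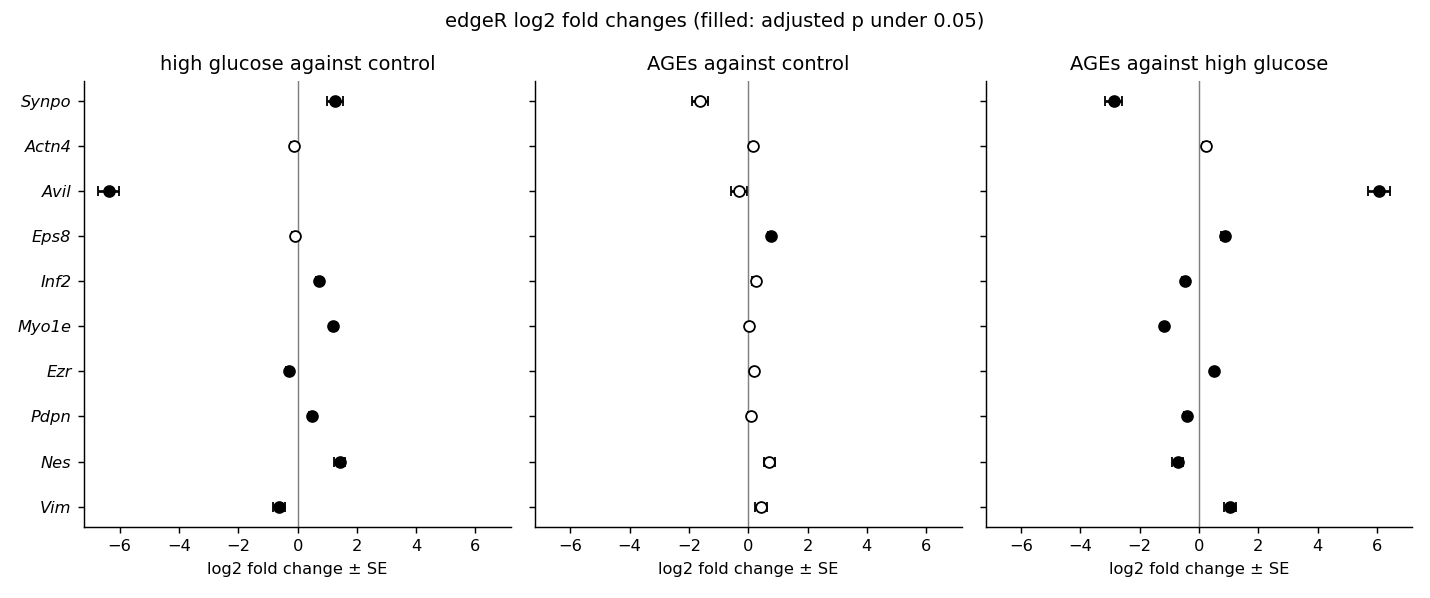
edgeR log2 fold change ± SE of each gene in high glucose against control, AGEs against control and AGEs against high glucose; filled points have an adjusted p under 0.05. Synpo is at 1.25 in high glucose and −1.63 in AGEs against control, and Avil is at −6.38 and −0.30.

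The treatments were also compared with each other, AGEs against high glucose, which shares its libraries with the comparisons above. Of the 10 genes 9 were called, 4 higher and 5 lower in AGEs, against 39.9% of all genes, 19.7% higher and 20.2% lower. Each of the 9 calls held in all 16 alternatives. The libraries of the 2 groups did not overlap for any of the 10 genes, 5 of them wholly above high glucose and 5 below, against 52.5% of all genes without overlap (25.2% above and 27.3% below). Synpo was 7.37-fold lower in AGEs (7.24 ± 1.60 CPM) than in high glucose (53.4 ± 20.4 CPM), at −2.88 on the log2 scale (SE 0.29, adjusted p = 6.33e-05). The ratio of Synpo to its partner Actn4 within a library, also chosen after the values were seen, was 0.00828 ± 0.00267 in AGEs, 0.0703 ± 0.0254 in high glucose and 0.0278 ± 0.00431 in control, in FPKM.

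Avil was higher in AGEs (23.5 ± 9.55 CPM) than in high glucose (0.342 ± 0.0618 CPM), at 6.07 on the log2 scale (SE 0.36, adjusted p = 3.38e-06). Vim, at 257 ± 45.1 CPM in AGEs and 124 ± 36.3 CPM in high glucose, differed by 1.05 (SE 0.21, adjusted p = 0.00296). Eps8 was higher in AGEs by 0.86 (SE 0.11, adjusted p = 0.000194) and Ezr by 0.51 (SE 0.08, adjusted p = 0.00116). In the other direction Myo1e was at −1.18 (SE 0.08, adjusted p = 9.19e-06), Nes at −0.72 (SE 0.18, adjusted p = 0.0105), Inf2 at −0.47 (SE 0.11, adjusted p = 0.00707) and Pdpn at −0.42 (SE 0.09, adjusted p = 0.00555). Actn4, at 577 ± 76.5 CPM in AGEs and 485 ± 13.7 CPM in high glucose, did not pass (0.25 on the log2 scale, SE 0.11, adjusted p = 0.113).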

How the data were processed

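The authors deposited a table with whole-number read counts and FPKM values per gene, a column of each in every library, as the file headers show. The tools named in the submitters' processing notes are cutadapt 1.9 and FastQC, with GRCm38 as the build. No aligner, counting tool, annotation or use of strand is named there. The deposited FPKM of a gene with 0 counts is written as 0.0001. Low counts fell on 4 and 8 (9186 and 4896 entries) more often than on 3 and 7 (2519 and 1632), and how fragments were counted is not known from the sources used here. No pair of replicate libraries agreed within sampling noise (chi-square per degree of freedom at least 47.6).

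Counts were tested in edgeR 4.0.16 (R 4.3.3) by quasi-likelihood, with filterByExpr, TMM scaling and 1 fit of all 9 libraries with 3 group means. P-values are two-sided and adjusted by Benjamini-Hochberg over 17680 genes, and a gene was called under 0.05. The standard error is the absolute log2 fold change over the square root of F. The procedure was tested on simulated data. Alternatives used DESeq2 1.42.0, limma 3.58.1 on log2(FPKM + 1) and log2(FPKM + 0.1), other scalings, filters and fits, and each library left out. Positions are those of the table, and overlaps use GENCODE mouse release 21. Named genes were all 10 members, up to 2 called genes per list and direction by smallest p, relatives of a member, genes overlapping a member or within 100 kb of Avil, and the 3 genes most like each member. Some items of these lists are not reported here. The members and lists were chosen with earlier results of these data known.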

Additional observations from a re-analysis of the deposited data

How the results depend on the processing

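Of 480 values of single genes under the alternatives, 444 kept their direction and their side of the threshold, 26 lost a call, 3 gained a call and 7 changed sign. The sign changes were Actn4 in high glucose against control with library size alone, limma on log2(FPKM + 1) and on log2(FPKM + 0.1) (0.072, 0.076 and 0.077), Eps8 in the same comparison and settings (0.089, 0.047 and 0.078), and Myo1e in AGEs against control without AGEs library 3 (−0.0031, within a leave-one-out range of −0.0031 to 0.066), none of them called. Without the TMM factors, which were highest in the high glucose libraries, the median of the 10 genes moved to 0.38 in high glucose against control (0.35 and 0.37 on the FPKM scales) and to −0.28 in AGEs against high glucose (−0.27 and −0.28). On the log2(FPKM + 1) scale 5237 genes were higher and 2400 lower in high glucose against control. The number of the 10 genes called in high glucose against control was 6 to 8 over all alternatives, and 6 to 7 with 1 library left out. In AGEs against control the count of 1 became 3 with DESeq2 and 0 with library size alone, no filter on low counts, the limma fits and each library left out (0 to 0), and DESeq2 called 268 genes in all. The replicate numbers are not stated to pair the libraries. Deviations of same-numbered libraries correlated at −0.0673 to 0.0844, and 2 of 9 libraries correlated best with their own number. With 3 libraries a group, these values do not settle whether libraries were paired. With the replicate block, 8, 0 and 9 of the 10 genes were called in high glucose against control, AGEs against control and AGEs against high glucose, and 6322, 5 and 6390 genes in all. With 3 libraries a group, the cause of these shifts was not tested.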

Other observations

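The genes whose log2 CPM over the 9 libraries was most like that of a member were searched among 10050 genes with ordinary symbols and a mean of at least 1 FPKM. The libraries fall into groups, so these correlations share that grouping and are a description only. Lmbrd1 and Apmap were among the 3 genes closest to Avil (Pearson r = 0.997 for each), and Myo1e was closest to Plxnb1, Capn5 and Kif2c (0.997, 0.997 and 0.995). Synpo, high in high glucose and low in AGEs, was closest to Rnf167, Hacl1 and Zer1 (0.986, 0.980 and 0.979). Eps8, high in AGEs, was closest to Fgfr1op, Sel1l3 and Gsta1 (0.977, 0.976 and 0.964). Inf2 was closest to Atp6v0a4 (0.992), Pdpn to Apln (0.991), Nes to Epb41l2 (0.988), Ezr to Zrsr2 (0.980), Vim to Ccn1 (0.969) and Actn4 to Zc3h18 (0.924).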
